A study of Mus musculus with 15 samples.

Results

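The genes described here are 10 regulators of mitochondrial biogenesis and of the response to exercise: the coactivators Ppargc1a and Ppargc1b, the transcription factors Nrf1, Esrra and Ppara, the mitochondrial factor Tfam, the deacetylases Sirt1 and Sirt3, the kinase subunit Prkaa1 and the membrane protein Fndc5. They were chosen by name, and all array features whose only gene symbol is one of these were taken, which gave 30 features of 27968 with values and 1 symbol, and 10 genes of 16401. All 10 were measured: Ppara by 10 features, Ppargc1b, Nrf1 and Tfam by 3 each, Sirt3 by 1 and the others by 2 each. The tissue was whole brain cortex from adult females, read on 1-colour Agilent microarrays, which report each transcript as the brightness of Cy3-labelled RNA bound to a spot. There were 5 arrays from exercised SAMP8 mice, 5 from sedentary SAMP8 mice and 5 from sedentary SAMR1 mice. SAMP8 is an inbred strain prone to early senescence with memory loss, and SAMR1 is its senescence-resistant control strain. No exercised SAMR1 mice are among the groups, so an effect of exercise could be set only within SAMP8, and exercised SAMP8 differ from SAMR1 by both strain and exercise. The sources used here do not give the kind or length of the exercise or how many animals stand behind an array. The labels name the arrays biological replicates; if they came from pooled or shared animals, the p-values measure a spread that is partly technical.

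As background, PGC-1alpha (Ppargc1a) and PGC-1beta (Ppargc1b) are coactivators that bind nuclear receptors and other transcription factors and switch on genes of mitochondrial respiration. Nuclear respiratory factor 1 (Nrf1) and the estrogen-related receptor alpha (Esrra) are DNA-binding partners that carry this programme to respiratory chain genes and to Tfam, which enters mitochondria, packages mitochondrial DNA and starts its transcription. The energy sensor AMPK, with Prkaa1 as a catalytic subunit, phosphorylates PGC-1alpha, and the NAD-dependent deacetylase Sirt1 deacetylates it. In exercised muscle the pathway raises Fndc5, the precursor of the secreted peptide irisin, and in cortex PGC-1alpha is known above all from parvalbumin interneurons.

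Promoter sequences of Ppargc1a, Sirt1 and Tfam are shown because their values carry most of what follows, at the top of the pathway, at the sensor and at its mitochondrial end. Of the 10 genes 9 matched the RefSeq promoter table of build GRCm38.p6, with 11 promoters in all. Each sequence is the 250 bases before the annotated start, 5′ to 3′ on the gene's strand. Capitals mark the motif searched for on both strands: the cAMP response element core TGACG (here as its reverse complement) in Ppargc1a at chr5:51567726-51567975 on the minus strand, the E-box CACGTG in Sirt1 at chr10:63339036-63339285 on the minus strand, and the ETS site ACCGGAAG in Tfam at chr10:71238045-71238294 on the minus strand.
Ppargc1a: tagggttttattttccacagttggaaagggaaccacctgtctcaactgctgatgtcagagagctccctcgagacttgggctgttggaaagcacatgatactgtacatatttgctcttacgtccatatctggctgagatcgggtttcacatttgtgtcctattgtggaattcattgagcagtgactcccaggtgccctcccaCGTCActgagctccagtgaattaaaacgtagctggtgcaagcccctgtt
Sirt1: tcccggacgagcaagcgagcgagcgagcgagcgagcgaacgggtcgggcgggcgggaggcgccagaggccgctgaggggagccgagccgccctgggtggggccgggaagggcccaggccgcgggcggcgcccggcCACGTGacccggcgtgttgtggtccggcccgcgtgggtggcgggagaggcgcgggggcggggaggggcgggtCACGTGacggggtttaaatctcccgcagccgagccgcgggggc
Tfam: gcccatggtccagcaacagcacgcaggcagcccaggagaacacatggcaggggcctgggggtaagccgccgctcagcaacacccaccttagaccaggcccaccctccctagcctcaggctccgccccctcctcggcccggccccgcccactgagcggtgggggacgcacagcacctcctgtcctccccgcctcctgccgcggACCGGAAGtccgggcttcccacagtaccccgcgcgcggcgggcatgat
The core in Ppargc1a begins at position -49 from the start, the 2 E-boxes in Sirt1 at -115 and -43, and the ETS site in Tfam at -48. Of 32851 promoters of this length, 17.8% hold TGACG, 6.02% CACGTG and 1.72% ACCGGAAG. The NRF-1 site, found in 4.98% of promoters, was matched in Prkaa1 and Ppara, and the ERR-alpha motif AAGGTCA, found in 4.08%, in 0 of the 11. TGACG was also matched in Sirt1, Sirt3 and Ppara. These matches describe letters, not bound sites.

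The values are log2 of the deposited intensity, and each gene is read by its brightest feature (highest mean over all arrays) unless a feature is named by its number in the table. Median intensity was 207.8 to 208.8 per array. An array has no read depth, so precision rests on how many arrays a group holds and on the spread of each feature. As a check of the tissue, all 9 measured neuron markers lay above the lower quartile on every array. Their mean log2 level was 12.42 to 12.61 in exercised SAMP8, 12.46 to 12.61 in sedentary SAMP8 and 12.37 to 12.72 in SAMR1. All 7 measured markers of striatum also lay above that quartile on every array, so this check cannot tell cortex from striatum. Markers of striatum, a neighbouring region, had levels of 9.73 to 10.60 in exercised SAMP8, 10.46 to 10.96 in sedentary SAMP8 and 10.05 to 10.90 in SAMR1, with 7 of 7 genes negative and 0 passing the test after exercise. Their median exercise difference was -0.50, from -0.83 to -0.22. Over all genes the median was 0.020, with 44.6% negative. Markers of choroid plexus and meninges had levels of 8.45 to 9.55 in exercised SAMP8, 8.53 to 9.58 in sedentary SAMP8 and 8.14 to 8.98 in SAMR1; all 11 were positive in both comparisons with SAMR1, where 2 of them (Lum and Aqp1) rose in sedentary SAMP8 and 4 (Col1a1, Lum, Aqp1 and Dcn) in exercised SAMP8. Markers of thalamus and hypothalamus had levels of 7.74 to 8.36 in exercised SAMP8, 7.72 to 9.04 in sedentary SAMP8 and 7.58 to 7.93 in SAMR1; 8 of 9 were positive in each comparison with SAMR1, where 1 (Zic1) rose in sedentary SAMP8, and 7 of 9 were negative after exercise, with 0 passing. In whole tissue, fewer cells of a type and less RNA per cell cannot be told apart. The part of these regional and border tissues in the values below was not tested.

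None of the 10 regulators passed the test in exercised against sedentary SAMP8 (limma over all 15 arrays, Benjamini-Hochberg adjustment over 16401 genes, threshold 0.05). The percentage of all genes that passed was 0, and no gene had an adjusted p below 0.521. Sirt1 alone among the regulators had an unadjusted p under 0.05 (1 of 10), against 7.08% of all genes, and 0 regulators and 0 genes passed under any of the 9 alternative settings that give such a count. Without exercised replicate 12, 3 genes passed, none of them a regulator. Of the 10 differences 9 were negative, with a median of -0.11, against 44.6% of all genes negative and a median of 0.020. Of the 30 features 0 passed when fitted singly and 3 had an unadjusted p under 0.05, against 6.68% of all features; 27 were negative, against 49% of all features. The genes share arrays and several features share a gene, so these signs are not independent counts. The median size of a difference was 0.12 for the regulators and 0.10 for all genes, and their median standard errors were 0.12 both.

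**Figure D1:**
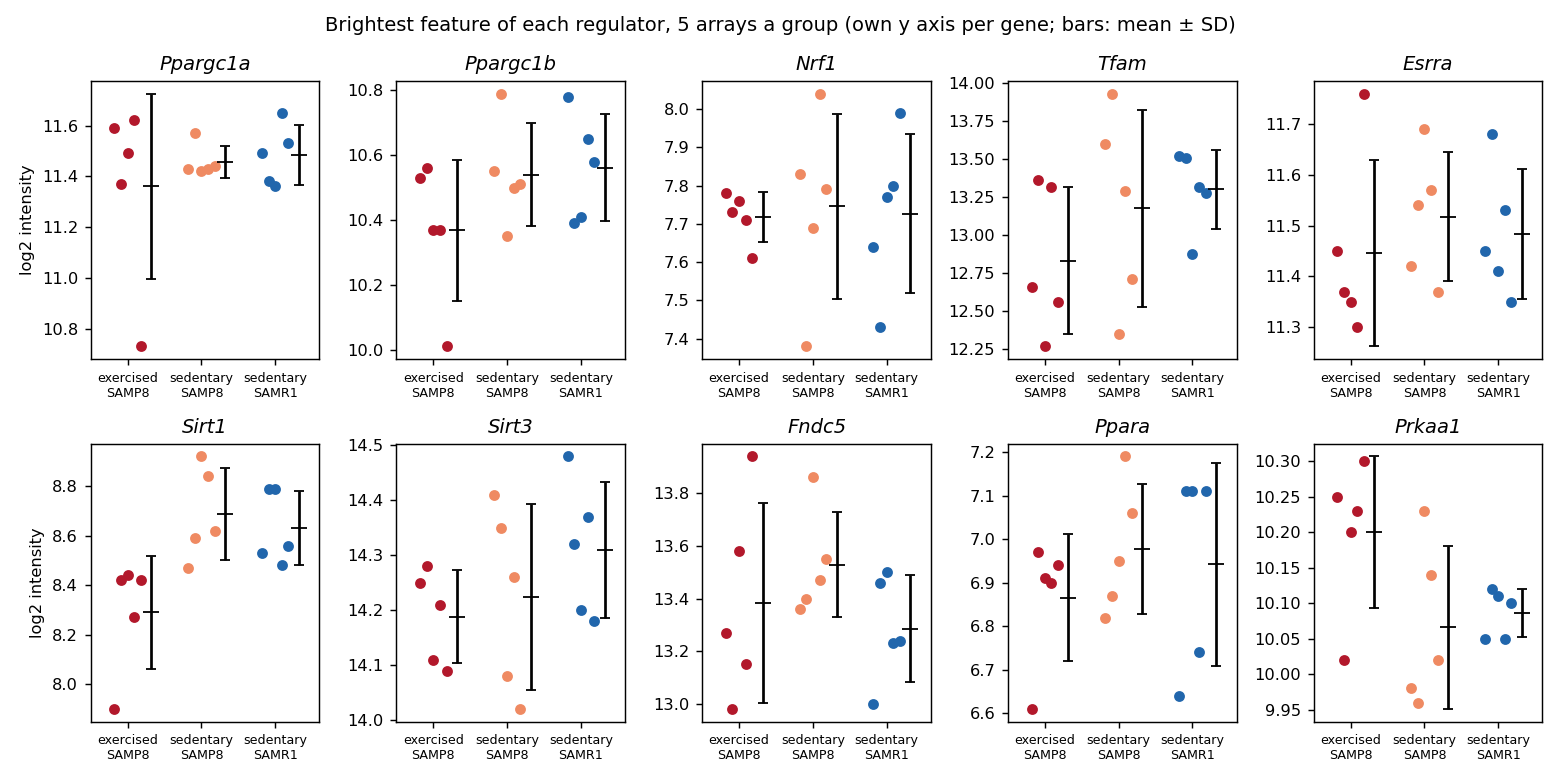
Log2 intensity of the brightest feature of each regulator on every array (points), with the mean ± SD of the group beside them; each gene has its own y axis, and exercised SAMP8, sedentary SAMP8 and sedentary SAMR1 hold 5 arrays each. The Sirt1 values of exercised SAMP8 (7.90 to 8.44) all lie below those of sedentary SAMP8 (8.47 to 8.92), and 1 exercised array has Ppargc1a at 10.73, apart from the others.

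Ppargc1a read 11.59, 11.37, 11.49, 11.62 and 10.73 on the 5 exercised SAMP8 arrays, against 11.43, 11.57, 11.42, 11.43 and 11.44 in sedentary SAMP8 and 11.49, 11.38, 11.36, 11.65 and 11.53 in SAMR1. Only exercised replicate 15 lay outside the joint range of the sedentary groups, and the other 4 exercised arrays lay within the SAMR1 range. Of these, the arrays at 11.59, 11.37 and 11.62 lay outside the narrower sedentary SAMP8 range of 11.42 to 11.57. The exercise difference was -0.10 ± 0.14 (limma log2 difference ± SE, adjusted p = 0.908), a fold of 0.932 with a 95% interval of 0.761 to 1.14. Without replicate 15 its sign turned, to 0.056 (adjusted p = 0.946). The other feature of the gene, which had no such low array (9.26 to 9.44 in exercised and 9.34 to 9.57 in sedentary SAMP8), gave -0.089 ± 0.069.

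Ppargc1b, the second coactivator of the family, read 10.53, 10.56, 10.37, 10.37 and 10.01 in exercised SAMP8, against 10.55, 10.79, 10.35, 10.50 and 10.51 in sedentary SAMP8 and 10.78, 10.39, 10.41, 10.65 and 10.58 in SAMR1. Again replicate 15 was the lowest exercised array and the groups overlapped. The difference was -0.17 ± 0.12 (limma adjusted p = 0.770), with a 95% interval of -0.42 to 0.074. Its 3 features gave -0.17, -0.023 and -0.31. The last of these, feature 34019, read 8.39 to 8.58 in exercised SAMP8, 8.47 to 9.09 in sedentary SAMP8 and 8.06 to 8.81 in SAMR1. It had an unadjusted limma p of 0.0464 after exercise and 0.0247 between the sedentary strains, with adjusted values of 0.738 and 0.263.

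Among the DNA-binding partners the largest difference after exercise in a brightest feature was -0.11, that of Ppara. Nrf1 averaged 7.72 ± 0.069 in exercised SAMP8, 7.74 ± 0.24 in sedentary SAMP8 and 7.73 ± 0.21 in SAMR1 (SD, n = 5 each). Its exercise difference was -0.027, with a 95% interval of -0.28 to 0.23. The other Nrf1 features gave -0.057 and -0.22, the second of them from feature 28692, which on 10 of 15 arrays was dimmer than the lower quartile. Esrra averaged 11.45 ± 0.18 in exercised SAMP8, 11.52 ± 0.13 in sedentary SAMP8 and 11.48 ± 0.13 in SAMR1 (SD, n = 5 each), a difference of -0.073 with an interval of -0.28 to 0.14. Its dimmer feature 27911 was more scattered, at 6.98 to 7.67 in exercised SAMP8, 6.74 to 8.14 in sedentary SAMP8 and 7.39 to 8.28 in SAMR1. That feature gave -0.20 ± 0.27 after exercise.

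Ppara, the fatty acid receptor that partners with PGC-1alpha in the control of lipid oxidation, averaged 6.87 ± 0.14 in exercised SAMP8, 6.98 ± 0.15 in sedentary SAMP8 and 6.94 ± 0.23 in SAMR1 (SD, n = 5 each). All 10 Ppara features were negative after exercise, from -0.35 to -0.015 with a median of -0.11. They carry the same accession and are not independent. In feature 31834, the lowest of them, exercised SAMP8 read 6.75, 6.77, 6.93, 6.52 and 6.72, against 7.62, 6.88, 6.85, 7.05 and 7.06 in sedentary SAMP8. The sedentary array at 7.62 stood apart from the others of its group, and the unadjusted limma p of that feature was 0.0440 (adjusted 0.737).

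Tfam had the widest spread of the 10 genes. It read 12.66, 13.36, 12.27, 13.32 and 12.56 in exercised SAMP8, against 13.60, 13.93, 12.35, 13.29 and 12.71 in sedentary SAMP8 and 13.52, 13.51, 12.88, 13.32 and 13.28 in SAMR1. In both SAMP8 groups the arrays fell into high and low ones within the group, and the groups overlapped widely. The exercise difference was -0.34 ± 0.28 (limma adjusted p = 0.806), and its interval of -0.94 to 0.26 allowed folds from 0.520 to 1.20. The within-group SD of 0.49 was larger than that of 91.8% of genes. The other 2 features did not share that spread: feature 11140 read 11.11 to 11.43 over all arrays, with an exercise difference of -0.0046 ± 0.088, and feature 33097 read 7.32 to 7.84, with 0.021 ± 0.11. The 4 arrays that were highest in feature 11140, exercised replicates 13 and 15 and sedentary SAMP8 replicates 8 and 10, were all among the 5 lowest in the brightest feature. As the mean of its 3 features Tfam gave -0.11 (adjusted p = 0.880).

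Sirt1 was the regulator with the smallest p after exercise, at rank 121 of 16401 genes. Exercised SAMP8 read 7.90, 8.42, 8.44, 8.27 and 8.42, against 8.47, 8.59, 8.92, 8.84 and 8.62 in sedentary SAMP8 and 8.53, 8.79, 8.79, 8.48 and 8.56 in SAMR1. All 5 exercised values lay below all 10 sedentary ones, by a gap of 0.034 to sedentary SAMP8 and 0.039 to SAMR1. The difference was -0.40 ± 0.12, a fold of 0.757 (95% interval 0.635 to 0.903), with an unadjusted limma p of 0.00422 and an adjusted p of 0.557. The exact two-sided permutation p was 0.00794, the smallest that 5 arrays against 5 can give, and 0.654 after adjustment over all genes. Groups without overlap were found in 1 of the 30 features of the regulators and in 1.1% of all features. The second Sirt1 feature, 33472, showed no such gap: it read 7.95, 7.85, 7.85, 8.01 and 8.10 in exercised SAMP8, against 7.91, 7.92, 7.79, 8.10 and 7.89 in sedentary SAMP8, a difference of 0.030 ± 0.083. The mean of both features gave -0.19 (adjusted p = 0.770). Leaving out 1 array at a time gave -0.46 to -0.31 for the brightest feature, with -0.31 reached without exercised replicate 11.

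Sirt3, the main deacetylase inside mitochondria, had 1 feature and little spread. It averaged 14.19 ± 0.083 in exercised SAMP8, 14.22 ± 0.17 in sedentary SAMP8 and 14.31 ± 0.12 in SAMR1 (SD, n = 5 each). The exercise difference was -0.036, with a 95% interval of -0.23 to 0.15, or folds of 0.856 to 1.11. Prkaa1 was the only regulator with a positive exercise difference. It read 10.25, 10.02, 10.20, 10.23 and 10.30 in exercised SAMP8, against 9.98, 9.96, 10.23, 10.14 and 10.02 in sedentary SAMP8 and 10.05, 10.12, 10.11, 10.05 and 10.10 in SAMR1. Of the 5 exercised arrays 4 lay above all SAMR1 arrays, and the exercised and sedentary SAMP8 groups overlapped. The difference was 0.13 ± 0.073 (limma adjusted p = 0.725), a fold of 1.10 (0.984 to 1.22). Its dimmer feature 6762, under the lower quartile on 6 of 15 arrays, gave -0.23 ± 0.15, and the mean of both features -0.050. Prkaa1 also had the smallest spread, with 3.9% of genes below its within-group SD of 0.094.

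Fndc5 read 13.27, 12.98, 13.58, 13.15 and 13.94 in exercised SAMP8, against 13.36, 13.40, 13.86, 13.47 and 13.55 in sedentary SAMP8 and 13.00, 13.46, 13.50, 13.23 and 13.24 in SAMR1. The exercised arrays spanned the range of both sedentary groups, with replicate 15 the highest. The exercise difference was -0.14 ± 0.16 (limma adjusted p = 0.879), a fold of 0.908 with an interval of 0.714 to 1.16. Its second feature gave -0.088 ± 0.11. Apart from Tfam, the 95% intervals of the 10 exercise differences all lay between -0.66 and 0.29 on the log2 scale.

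**Figure D2:**
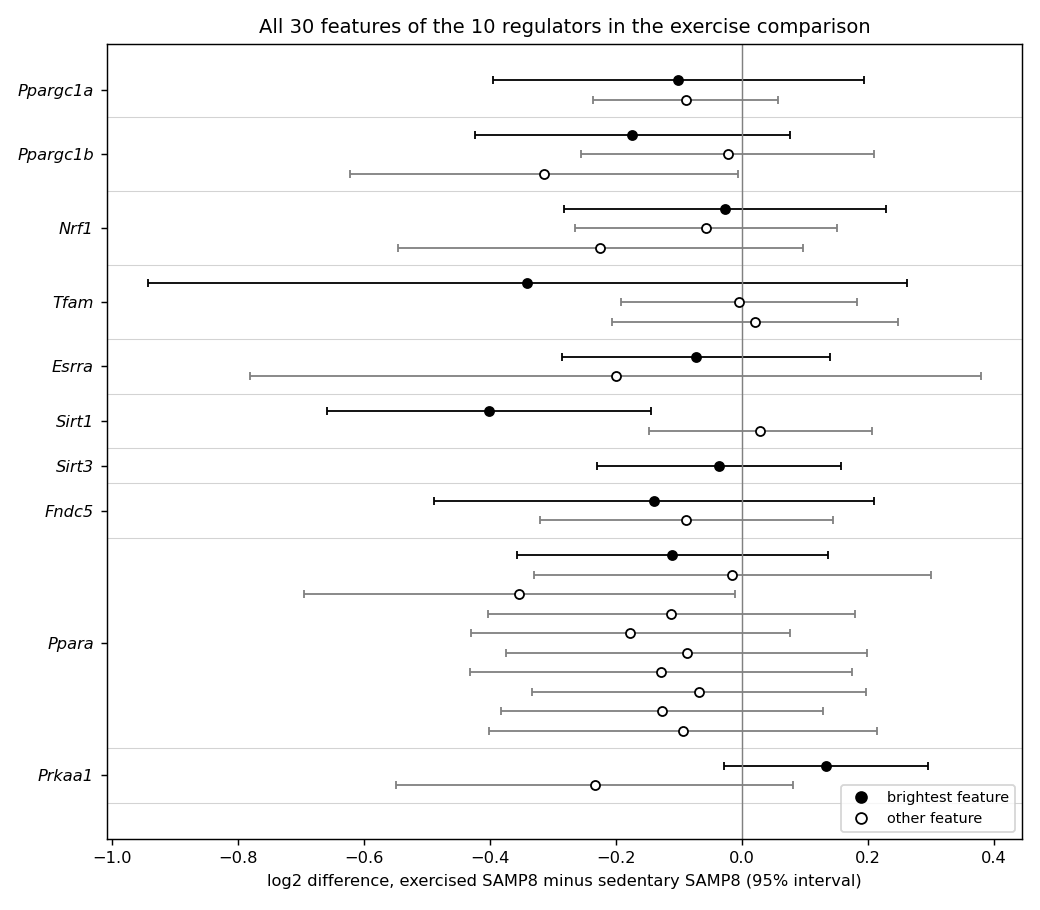
Log2 difference of exercised minus sedentary SAMP8 with its 95% interval for each of the 30 features of the regulators (filled: brightest feature of the gene; open: other features). Most points lie left of 0 with intervals that cross it, and in Sirt1, Tfam and Prkaa1 features of 1 gene lie on both sides of 0.

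Between the sedentary strains the regulators differed little on their brightest features. Of the 10 genes 0 passed in sedentary SAMP8 against SAMR1, where 3.03% of all genes did (497 genes), and 0 had an unadjusted limma p under 0.05, where 14.3% of genes did. Signs were split, 5 negative and 5 positive, and the median size of a difference was 0.037, against 0.12 over all genes. The highest value was that of Fndc5, at 0.24 ± 0.16 (adjusted p = 0.548), with a 95% interval of -0.11 to 0.59, and its other feature gave 0.043. Tfam followed in size with -0.12 ± 0.28, and Sirt3 had -0.086 ± 0.089. Ppargc1a gave -0.020 ± 0.14, Ppargc1b -0.019 ± 0.12, Nrf1 0.017 ± 0.12 and Prkaa1 -0.020 ± 0.073. Sirt1 (0.060 ± 0.12), Esrra (0.038 ± 0.098) and Ppara (0.037 ± 0.11) also lay near 0. Outside Tfam the 95% intervals of the brightest features reached from -0.31 to 0.59. Dimmer features were further from 0 in some genes. Esrra feature 27911 gave -0.42 ± 0.27, and the other Ppargc1b features gave -0.16 ± 0.11 and 0.36 ± 0.14. Of the 30 features 0 passed and 2 had an unadjusted p under 0.05, against 14.2% of all features, and 0 had groups without overlap, against 4.44%. Of the 9 genes with over 1 feature, 7 had features of both signs, and the dimmer feature of Prkaa1 gave 0.35 ± 0.15 (unadjusted p = 0.0306, adjusted 0.288) with 4 of 5 SAMR1 arrays under the lower quartile.

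Exercised SAMP8 against SAMR1 uses the same exercised arrays as the first comparison and the same SAMR1 arrays as the second, so its values are not independent of them. Of the regulators 0 of 10 passed, against 4.26% of all genes (698 genes), and 1, Sirt1, had an unadjusted limma p under 0.05, against 18.2% of genes. Sirt1 gave -0.34 ± 0.12 (adjusted p = 0.131), a fold of 0.789 (0.662 to 0.941), and 0.063 on its other feature. Of the 30 features 0 passed, 2 had an unadjusted p under 0.05, against 18.1% of all features, and 1, that of Sirt1, had groups without overlap, against 5.37%. Tfam gave -0.47 ± 0.28 (adjusted p = 0.421), with 0.055 and 0.035 on its other features, and Ppargc1b -0.19 ± 0.12 (0.416). Smaller differences were those of Ppargc1a (-0.12 ± 0.14), Sirt3 (-0.12 ± 0.089), Prkaa1 (0.11 ± 0.073) and Fndc5 (0.10 ± 0.16). Ppara gave -0.074 ± 0.11 and Nrf1 -0.0095 ± 0.12. The scattered Esrra feature 27911 gave -0.62 ± 0.27 (unadjusted p = 0.0369, adjusted 0.240), against -0.035 ± 0.098 on the brighter one.

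**Figure D3:**
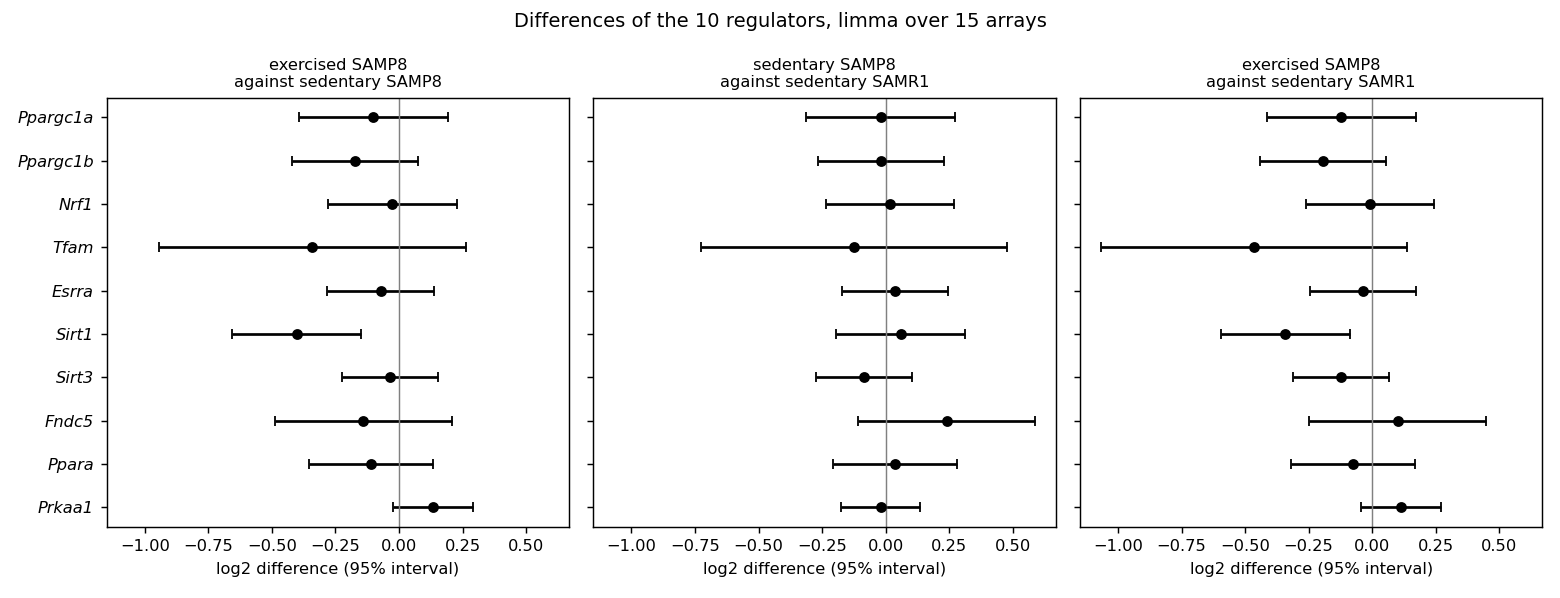
Log2 differences of the 10 regulators (brightest feature, limma over 15 arrays, 95% intervals) in exercised against sedentary SAMP8, sedentary SAMP8 against SAMR1 and exercised SAMP8 against SAMR1, which share arrays. The middle panel sits close to 0, the Sirt1 intervals (-0.66 to -0.15 and -0.60 to -0.088) do not reach 0 in the outer panels, and Tfam has the widest interval throughout.

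Ordered by group mean, exercised SAMP8 was the lowest group in 8 of the 10 genes, all but Fndc5 and Prkaa1. For Sirt1, at 8.29 ± 0.23 in exercised SAMP8, 8.69 ± 0.19 in sedentary SAMP8 and 8.63 ± 0.15 in SAMR1 (SD, n = 5 each), the distance of exercised SAMP8 from both other groups exceeded the SD within them, and that between the sedentary groups did not. Fndc5 stood at 13.39 ± 0.38 in exercised SAMP8, 13.53 ± 0.20 in sedentary SAMP8 and 13.29 ± 0.20 in SAMR1, with steps within the spread. Prkaa1 stood highest in exercised SAMP8, at 10.20 ± 0.11, against 10.07 ± 0.12 in sedentary SAMP8 and 10.09 ± 0.033 in SAMR1, and the upper step was about as large as the SD. In the other 7 genes no step between neighbouring groups exceeded the larger SD of the pair.

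The genes around the regulators were read through 10 lists with 213 genes, of which 200 were measured. These hold partners of PGC-1, AMPK subunits, sirtuins and NAD enzymes, factors of mitochondrial DNA, fusion and fission genes, protein import, secreted exercise factors, fatty acid oxidation, targets of the nuclear respiratory factors and of ERR-alpha, and genes known to depend on PGC-1alpha in interneurons. After exercise 0 of the 200 passed, 9 (4.5%) had an unadjusted limma p under 0.05, against 7.08% of all genes, and their median difference was -0.0037. In sedentary SAMP8 against SAMR1, 1 rose and 1 fell (1% of the 200, against 3.03% of all genes), and in exercised SAMP8 against SAMR1, 1 rose and 2 fell (1.5%, against 4.26%).

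Both genes that passed between the sedentary strains belong to the 27 measured PPAR-alpha and fatty acid oxidation genes. Plin2, which coats lipid droplets and is a known PPAR-alpha target, read 9.35, 9.66, 9.93, 9.14 and 9.83 in exercised SAMP8, 9.99, 9.94, 9.87, 9.44 and 9.76 in sedentary SAMP8, and 8.88, 9.02, 8.91, 8.83 and 8.78 in SAMR1. All 10 SAMP8 arrays lay above all SAMR1 arrays, and the 2 SAMP8 groups overlapped. Plin2 rose by 0.91 ± 0.14 in sedentary SAMP8 (limma adjusted p = 0.00129) and by 0.70 ± 0.14 in exercised SAMP8 (0.0102), both against SAMR1. Acot1, which splits fatty acyl-CoA to free fatty acid, read 9.74, 9.88, 10.19, 9.82 and 9.95 in exercised SAMP8, 9.92, 9.79, 10.03, 9.73 and 9.83 in sedentary SAMP8, and 10.45, 10.25, 10.47, 10.40 and 10.31 in SAMR1. It fell by 0.51 ± 0.090 in sedentary SAMP8 (difference -0.51, limma adjusted p = 0.00337) and by 0.46 ± 0.090 in exercised SAMP8 (0.00771), with no overlap with SAMR1 in either. Acot1 has close paralogs, and its probe could read them too. The median of the list between the sedentary strains was 0.021 (0.019 over all genes), with 17 genes positive and 10 negative. Ppara itself gave 0.037 ± 0.11 there.

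Nmnat1, a nuclear enzyme of NAD synthesis, was the third gene to pass. It read 9.07, 9.45, 9.27, 8.95 and 9.26 in exercised SAMP8, against 9.66, 9.56, 9.42, 9.56 and 9.63 in sedentary SAMP8 and 9.44, 9.44, 9.68, 9.53 and 9.73 in SAMR1. It fell in exercised SAMP8 against SAMR1, with a difference of -0.37 ± 0.097 (limma adjusted p = 0.0475). Its other feature gave 0.22, the mean of both -0.074 (0.646), and the call was lost in 13 of 15 fits that left out 1 array, with adjusted p up to 0.124. Against sedentary SAMP8, with the same exercised arrays, the brightest Nmnat1 feature gave -0.37 ± 0.097 (limma adjusted p = 0.521). There its other feature gave 0.017 and the mean of both -0.17. The other 17 genes of the sirtuin and NAD list did not pass, among them Sirt5, a mitochondrial desuccinylase, with -0.24 ± 0.11 between the sedentary strains (adjusted p = 0.331).

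In the other lists 0 genes passed in any comparison. After exercise the smallest p of the 29 PGC-1 partners was that of Ppard, the PPAR-delta receptor (0.69 ± 0.31, limma adjusted p = 0.687). Its 1 feature was under the lower quartile on 4 of 5 exercised arrays, on all 5 of sedentary SAMP8 and on all 5 of SAMR1, so this is a difference between dim readings. Of the 18 AMPK genes it was that of Prkaa2, the second catalytic subunit, with -0.31 ± 0.12 (adjusted p = 0.647) beside 0.13 for Prkaa1. Among 20 genes of mitochondrial DNA it was Twnk, the replicative helicase (-0.24 ± 0.12, 0.711), among 15 fusion and fission genes Dnm1l, the fission GTPase (0.32 ± 0.16, 0.715), and among 23 import genes Tomm7 of the outer membrane (-0.29 ± 0.092, 0.590). Dnm1l had a median of 0.083 over its other features after exercise, and the other Twnk feature gave -0.31. Twnk and Tomm7 had the opposite sign between the sedentary strains, at 0.33 ± 0.12 (0.192) and 0.31 ± 0.092 (0.106), where both comparisons use the sedentary SAMP8 arrays. Cpt1b, the muscle form of the carnitine transferase of fatty acid oxidation, gave -0.74 ± 0.20 (0.521) after exercise on its brightest feature and 0.82 on the other. Between the sedentary strains, with the same sedentary SAMP8 arrays, these Cpt1b features gave 0.70 ± 0.20 (0.0810) and -0.55. Among 20 secreted exercise factors and receptors Itgav, an integrin subunit described as an irisin receptor, gave 0.34 ± 0.11 (0.590), with 0.11 as the median of its other features. Of 26 respiratory factor targets Cox17, a copper chaperone, gave -0.18 ± 0.082 (0.687) on a feature at the top of the scanner range. The 4 genes known from mouse to depend on PGC-1alpha in interneurons (Pvalb, Syt2, Nefh and Cplx1) had a median of -0.030 after exercise, with Syt2, a synaptotagmin of fast-spiking cells, at -0.33 ± 0.16 (0.711).

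Between the sedentary strains the smallest p of the PGC-1 partners was that of Rxra, the retinoid receptor that pairs with the PPARs (0.33 ± 0.11 on the brightest feature and 0.34 on the other, limma adjusted p = 0.149). Acacb, an acetyl-CoA carboxylase under AMPK control, gave 0.31 ± 0.12 (0.259, other feature -0.35), and Il15, a cytokine made by exercised muscle, 0.28 ± 0.11 (0.218, other feature -0.65). Opa1, the fusion GTPase of the inner membrane, gave -0.12 ± 0.083 (0.545) and the neurofilament gene Nefh -0.11 ± 0.11 (0.722). Atp5b, a subunit of ATP synthase, gave 0.16 ± 0.061 (0.226) on a feature near the top of the scanner range. The other features of Opa1 (median -0.15) and Nefh (-0.071) had the same sign as the brightest, and those of Atp5b (median -0.055) did not. Rxra passed without sedentary SAMP8 replicate 10 (0.41, limma adjusted p = 0.0476), and Tomm7 without sedentary SAMP8 replicate 8 (0.37, 0.0375).

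In exercised SAMP8 against SAMR1, several of these lists held genes just short of the threshold. Ncoa1, a steroid receptor coactivator, gave -0.28 ± 0.081 (limma adjusted p = 0.0639), Acacb 0.42 ± 0.12 (0.0708), and Sco1, a copper chaperone of cytochrome oxidase, 0.42 ± 0.13 (0.0766). The groups did not overlap in Ncoa1 and Acacb, and did in Sco1. Over all features, 5.37% had groups without overlap in this comparison. The other feature of Acacb gave -0.17. Ntrk2, the receptor of the exercise-linked neurotrophin BDNF, gave 0.47 ± 0.15 (0.0948) and Timm8b, an import chaperone, 0.30 ± 0.096 (0.0954). The groups did not overlap in Timm8b either, and did in Ntrk2. Dnm1l gave 0.38 ± 0.16 (0.228), with a median of 0.012 over its other features, and Syt2 -0.29 ± 0.16 (0.349). The other feature of Timm8b gave -0.047 and that of Sco1 0.18, and the other Ntrk2 features had a median of 0.12. With 1 array left out, Acacb (limma adjusted p = 0.00888) and Ncoa1 (0.0478) passed without sedentary SAMP8 replicate 8, which enters this comparison only through the shared spread. Sco1 passed without SAMR1 replicate 2 (0.48, 0.0438), and the brighter feature of Slirp without exercised replicate 12 (-0.33, 0.0380).

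Read feature by feature, 425 features of the listed genes gave 4 that rose and 4 that fell between the sedentary strains, and 7 that rose and 4 that fell in exercised SAMP8 against SAMR1, adjusted over 27968 features, of which 2.79% and 3.45% passed; after exercise 0 of them did. The genes in the next sentences were named after their values were seen. The dimmer of 2 features of Slirp, whose protein stabilizes mitochondrial messenger RNA, read 8.44, 7.49, 8.88, 8.45 and 8.56 in exercised SAMP8, 7.65, 7.99, 8.55, 8.33 and 8.84 in sedentary SAMP8, and 9.76, 9.69, 9.20, 9.35 and 9.76 in SAMR1. It fell by 1.28 ± 0.25 in sedentary SAMP8 (limma adjusted p = 0.00888) and by 1.19 ± 0.25 in exercised SAMP8 (0.0138). The brighter Slirp feature gave -0.23 ± 0.094 (0.261) and -0.26 ± 0.094 (0.151). A feature of Timm17b, an inner membrane import subunit with 4 features, fell by 0.69 ± 0.11 (0.00131) and by 0.75 ± 0.11 (0.000613), while the brightest Timm17b feature was positive, at 0.27 ± 0.091 in exercised SAMP8. Ntrk2 has 21 features, and 5 of them rose in exercised SAMP8 against SAMR1, by 0.40 to 0.43. In sedentary SAMP8 against SAMR1 Ntrk2 feature 33053, which is among those 5, rose by 0.32 ± 0.082 (limma adjusted p = 0.0477) and feature 10063 by 0.51 ± 0.12 (0.0405).

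**Figure D4:**
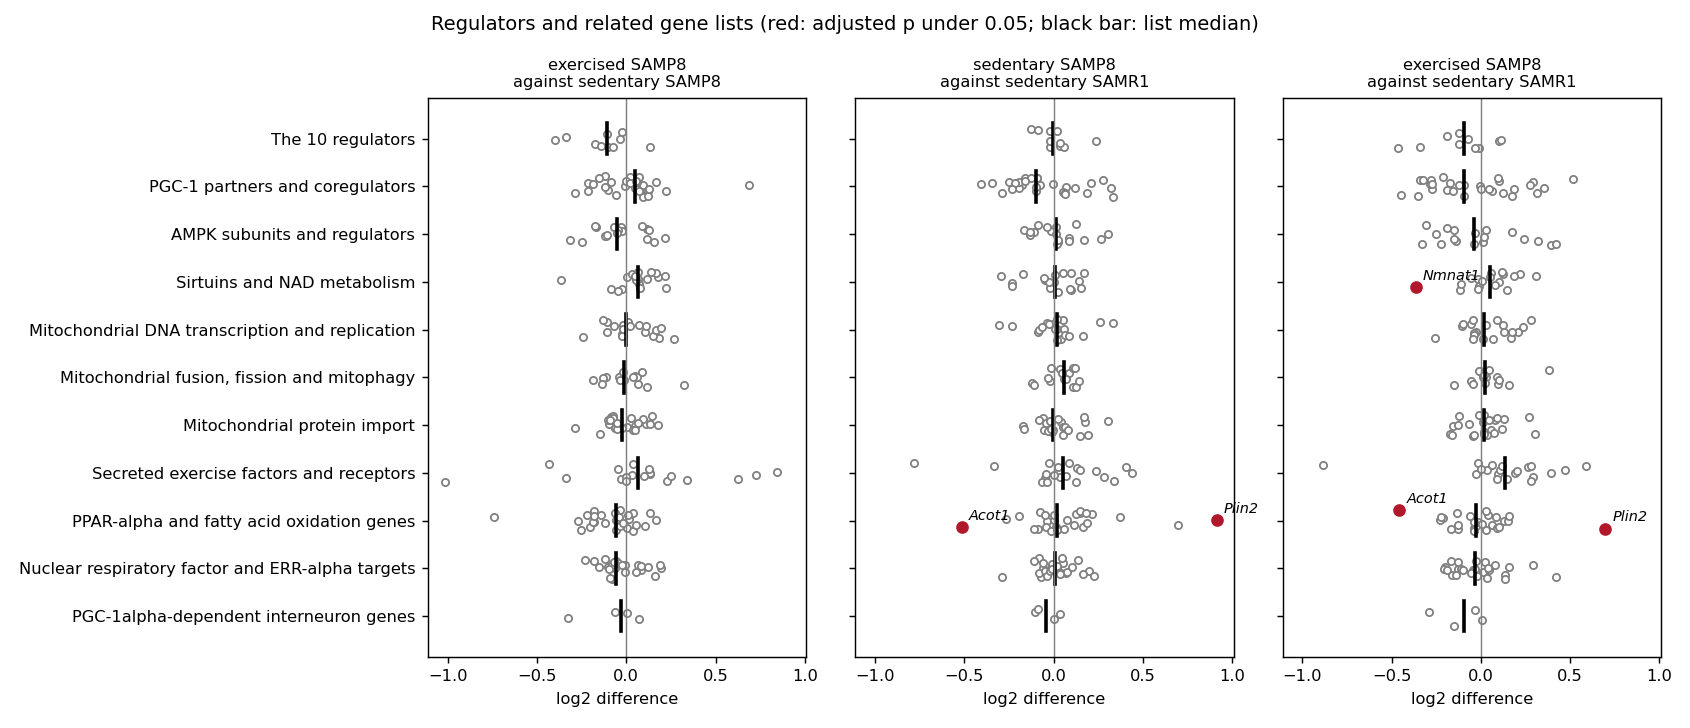
Log2 differences of the 10 regulators and of the genes in 10 related lists (circles: genes; black bars: list medians; red: limma adjusted p under 0.05) in exercised against sedentary SAMP8, sedentary SAMP8 against SAMR1 and exercised SAMP8 against SAMR1. No gene is red after exercise, and Plin2, Acot1 and Nmnat1 are the only red ones in the other panels.

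Exercised replicate 15 carried much of the spread of the regulators in its group. It was the lowest exercised array in Ppargc1a, Ppargc1b, Nrf1 and Sirt3 and the highest in Esrra, Fndc5 and Prkaa1, 7 of the 10 genes. Its mean absolute deviation from the group mean was 0.26 over the 10 regulators and 0.20 over all genes, while the other 14 arrays had 0.090 to 0.22 over the regulators and 0.15 to 0.20 over all genes. On the second principal component of all genes, with 14.6% of the variance, it scored 30.9, outside the range of -25.5 to 14.8 of the other arrays, and limma gave it an array weight of 0.698, where SAMR1 replicate 2 had the lowest of the 15 at 0.668. The regulators did not all deviate one way on such an array: replicate 8 of sedentary SAMP8 was the lowest of its group in Ppargc1a, Ppargc1b and Tfam and the highest in Esrra, Sirt1, Fndc5 and Prkaa1.

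**Figure D5:**
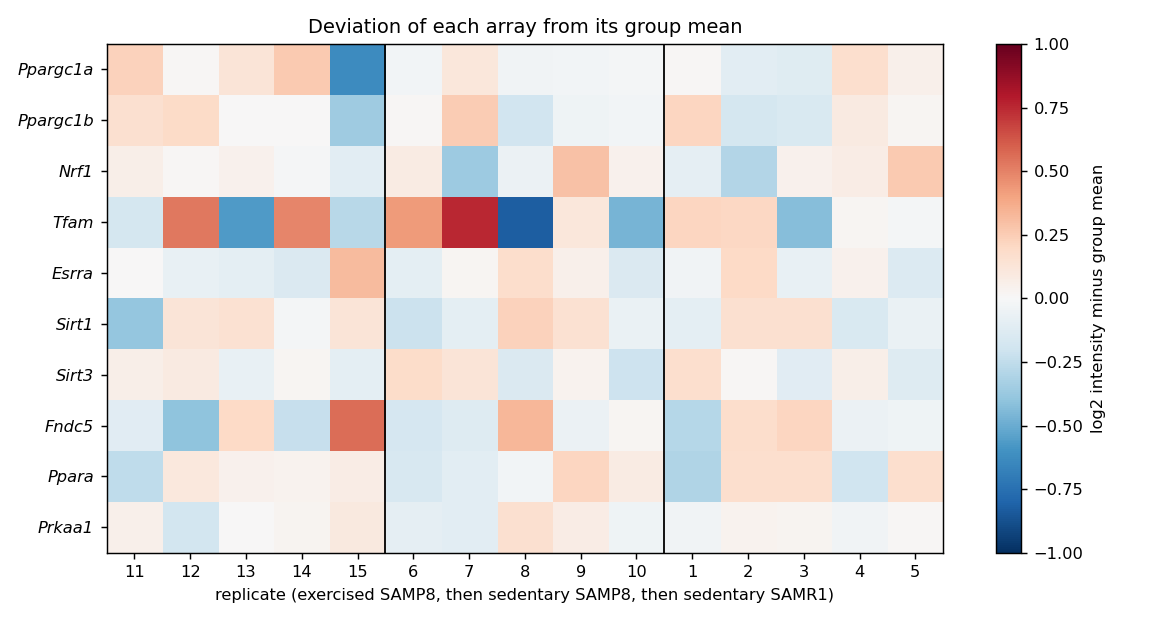
Deviation of each array from its group mean, in log2 intensity, for the brightest feature of each regulator (red: above, blue: below; replicates 11 to 15 exercised SAMP8, 6 to 10 sedentary SAMP8, 1 to 5 sedentary SAMR1). Exercised replicate 15 is dark blue in Ppargc1a and red in Fndc5, and the Tfam row has the deepest colours in sedentary SAMP8.

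For each regulator the genes with the most similar pattern were found by Pearson's r of log2 values over the 15 arrays, which share array-wide deviations; these are the 3 highest among 16401 genes and only describe the arrays. For Ppargc1a they were Pja2 (0.92), Nsmf (0.90) and Ckap5 (0.89), and for Ppargc1b Psmd1 (0.96), Oxct1 (0.93) and Gmeb2 (0.91). For Tfam they were Khsrp (0.97), Syn1 (0.97) and Fbxo2 (0.95). Sirt1 was nearest to Hnrnpa0 (0.91), Rc3h2 (0.89) and Rab12 (0.87), and Sirt3 to Snx5 (0.94), Zfp874b (0.94) and Inava (0.93). Fndc5 was nearest to Ift43 (0.93), Snx8 (0.92) and Cox19 (0.91), and Prkaa1 to Gm38457 (0.93), Ube2e2 (0.92) and Lrrn3 (0.91). Nrf1 was nearest to Zfp53 (0.91), Hexa (0.82) and Efcab7 (0.78), Esrra to the mitofusin Mfn1 (0.82), Cep43 (0.80) and Slc45a3 (0.77), and Ppara to Bcl9l (0.82), H2al1m (0.82) and Cacng7 (0.79). No other regulator was among the 3 nearest genes of any of the 10.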

How the data were processed

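RNA of whole cortex was labelled with Cy3 and hybridised to 1-colour arrays, per the labels' protocols. The deposited table gave linear Cy3 intensity in 15 columns, an array each, and 0 other columns of values. Per the submitters' processing notes the authors used limma, with no version or step given. The sources used here do not state the background correction, normalization, detection calls, genome build, slides or scans, and no batch of slide or scan was therefore tested. Arrays have no read depth, and precision rests on their number and on the spread of each feature.

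Of 45220 features 34479 had values, 27968 of them with 1 gene symbol in the platform annotation, 38 with several and 6473 with none. Values were taken as log2 with no offset and no further normalization. Each gene was read by its brightest feature, giving 16401 genes, which were fitted by lmFit and eBayes of limma 3.58.1 (R 4.3.3) over 15 arrays in 3 groups, two-sided; a gene passed at a Benjamini-Hochberg adjusted p under 0.05 over all genes. All 30 features of the regulators were also fitted singly, adjusted over 27968 features. The fit was tested on simulated data. "Under the lower quartile" means below that of all features on the same array. The 10 regulators and the lists were chosen with earlier results of these data known. Named genes are all regulators, every listed pathway gene that passed and the gene with the smallest p of each list and comparison, the 3 genes nearest to each regulator, and cell type markers that passed; genes named beyond these (Timm17b, Igf1, Sparc, Mef2c, single Ntrk2 and Slirp features, Cx3cr1 and Rgs5) were chosen after their values were seen. Alternatives were the mean of a gene's features, every feature singly, quantile normalization, median centring, leaving out the dimmest 30% of genes, an offset of 50, only the groups compared, array weights, a trended and robust prior, an exact permutation test and leaving out each array. Promoters are RefSeq's of GRCm38.p6. Python 3.11.15 (pandas 2.3.3, numpy 2.4.6) wrote the tables, and matplotlib 3.10.9 drew the figures.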

Additional observations from a re-analysis of the deposited data

Results flagged for a closer look

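Of 90 groups of 5 values (30 features in 3 groups), 6 held 1 array far from the other 4 by Dixon's criterion at 95%, which chance alone marks in about 1 of 20 groups. In the brightest Ppargc1a feature, exercised SAMP8 replicate 15 read 10.73, below 11.37 to 11.62 on the other exercised arrays. In the same feature, sedentary SAMP8 replicate 7 read 11.57, above 11.42 to 11.44. In the dimmest Tfam feature, exercised replicate 11 read 7.84, above 7.48 to 7.56. In the brightest Ppara feature the same array read 6.61, below 6.90 to 6.97, and in Ppara feature 6408 it read 6.38, below 6.78 to 6.85. In Ppara feature 31834, sedentary SAMP8 replicate 6 read 7.62, above 6.85 to 7.06.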

How the results depend on the processing

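Under all alternatives and with each array left out, 0 regulators passed in each comparison. Directions of some differences turned, both near 0 and further from it. Those further from 0 included Cpt1b (-0.74 after exercise) and, between the sedentary strains, Acacb (0.31) and Il15 (0.28). With the mean of a gene's features Prkaa1 gave -0.050 after exercise, and between the sedentary strains Ppargc1a gave 0.017, Ppargc1b 0.062, Nrf1 -0.0030, Esrra -0.19, Prkaa1 0.17, Acacb -0.021 and Il15 -0.19, while Cpt1b gave 0.043 after exercise. With quantile normalization Nrf1 gave -0.019 and Ppara -0.0051 between the sedentary strains. Leaving out 1 array gave, after exercise, -0.17 to 0.056 for Ppargc1a, -0.12 to 0.047 for Nrf1 and -0.086 to 0.0095 for Sirt3. Between the sedentary strains it gave -0.051 to 0.022 for Ppargc1a, -0.082 to 0.035 for Ppargc1b, -0.057 to 0.11 for Nrf1, -0.31 to 0.082 for Tfam, -0.0056 to 0.088 for Esrra, -0.039 to 0.079 for Ppara and -0.062 to 0.0081 for Prkaa1. In exercised SAMP8 against SAMR1 it gave -0.19 to 0.037 for Ppargc1a, -0.084 to 0.057 for Nrf1, -0.11 to 0.015 for Esrra and -0.038 to 0.20 for Fndc5. The other regulator differences kept their sign, 289 of 297 under alternatives and 423 of 450 with 1 array left out. The causes were not tested. Over all genes, 0 to 3 passed after exercise with 1 array left out (3 without exercised replicate 12), and 780 features passed between the sedentary strains when every feature was fitted, against 497 genes. Nmnat1 lost its call with the mean of its features (-0.074, adjusted p = 0.646), with every feature fitted (0.0580), with only the groups compared (0.112), in the exact permutation test (0.218), and without most single arrays. Plin2 and Acot1 lost theirs only in the exact permutation test, whose p after adjustment cannot reach 0.05 here. Slirp passed with the mean of its features in exercised SAMP8 against SAMR1 (-0.72, 0.00306). In the same comparison Acacb (0.0422), Ncoa1 (0.0407) and Sco1 (0.0460) passed without the dimmest 30% of genes, Acacb with only the groups compared (0.0181) and Ncoa1 with a trended and robust prior (0.0420). No paired analysis was possible because the groups share no replicate numbers.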

Other observations

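Single genes of the marker lists passed against SAMR1. Gfap, the astrocyte intermediate filament, rose in sedentary SAMP8 by 0.72 ± 0.14 (limma adjusted p = 0.00771), with 0.64 as the median over its further features, while the other 7 astrocyte markers did not pass. Of all 8 astrocyte markers, 5 were positive and 3 negative in sedentary SAMP8 against SAMR1, with a median of 0.065. In exercised SAMP8 against SAMR1 Gfap gave 0.48 ± 0.14 (limma adjusted p = 0.0675), with 0.49 as the median over its further features. There 4 of the 8 astrocyte markers were positive and 4 negative, from -0.62 to 0.48 with a median of -0.021. Zic1, a transcription factor of thalamus and meninges, rose in sedentary SAMP8 by 0.97 ± 0.24 (0.0430) and gave -0.75 ± 0.24 (0.590) after exercise; the other 8 thalamic and hypothalamic markers did not pass, with a median over all 9 of 0.42 between the sedentary strains. In exercised SAMP8, Aif1, a microglial and macrophage protein, rose by 0.41 ± 0.092 (0.0189) against SAMR1. The other 6 microglia markers did not pass; of all 7, 5 were positive and 2 negative, with Cx3cr1, the microglial fractalkine receptor, at -0.60 ± 0.20 (0.105). Pdgfrb, a receptor of pericytes, rose by 0.46 ± 0.10 (0.0194) in the same comparison. The other 8 endothelial and mural markers did not pass; of all 9, 2 were positive and 7 negative, with a median of -0.10, and the pericyte gene Rgs5 gave -0.33 ± 0.13 (0.188). Aif1 and Pdgfrb did not pass in sedentary SAMP8 against SAMR1 but were positive there. Aif1 gave 0.30 ± 0.092 (limma adjusted p = 0.109) and Pdgfrb 0.25 ± 0.10 (0.27). None of these markers passed after exercise within SAMP8.

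Another 3 features of the pathway lists, chosen after their values were seen, passed when features were fitted singly. A feature of Igf1, a growth factor, rose in sedentary SAMP8 by 0.38 ± 0.094 (limma adjusted p = 0.0425), with 6.80 to 6.99 in sedentary SAMP8 and 6.36 to 6.75 in SAMR1. It held place 7 by brightness among the Igf1 features, and the brightest did not pass. The dimmer of 2 features of Sparc, a secreted matrix protein, rose in exercised SAMP8 by 0.51 ± 0.13 against SAMR1 (0.0458). The brighter Sparc feature did not pass there, with means of 11.58 ± 0.27 in exercised SAMP8 and 11.47 ± 0.44 in SAMR1 (SD). A feature of Mef2c, a transcription factor of neurons and muscle, fell in sedentary SAMP8 by 0.93 ± 0.22 (0.0330) and in exercised SAMP8 by 0.89 ± 0.22 (0.0382) against SAMR1. This Mef2c feature was under the lower quartile on 5 of 5 exercised SAMP8, 5 of 5 sedentary SAMP8 and 4 of 5 SAMR1 arrays, so all groups were dim.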
